A study of Mus musculus with 18 samples.

Results

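The 9 genes Cd44, Cd69, Ly6c2, Ly6a, Slamf6, Dapl1, Igfbp4, Actn1 and Nsg2, used as markers of naive, activated and memory T cells, were followed by RNA sequencing through 18 libraries of mouse CD8+ T cells. They were taken by symbol from the 55536 rows of the deposited gene table that carry an Ensembl identifier, each symbol matched 1 row in GENCODE M21, and all 9 passed the filter on low counts in every comparison. The cells came from spleen and lymph nodes, and the labels give every library the genotype OT-I, a line that carries a T cell receptor transgene specific for an ovalbumin peptide. There were 8 libraries labelled naive (day 0), 8 labelled control, whose cells carried a scrambled sequence, and 2 labelled Tra2bKO, here called knockout. Both of the latter groups are from day 4 of a response to that peptide (SIINFEKL) given with antibodies against OX40 and 4-1BB, costimulatory receptors of the TNF receptor family. Nothing in the labels ties libraries to separate mice, and every p-value therefore refers to the variation among libraries, part or all of which may be technical.

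A naive CD8+ T cell circulates in a resting state until its receptor binds antigen, after which it divides, becomes an effector cell and in part persists as a memory cell. The products of 5 genes of the set sit on the cell surface. Cd44 encodes a receptor for hyaluronan that is carried at higher density by antigen-experienced cells. Cd69 encodes a C-type lectin that appears soon after receptor stimulation and pulls the lymphocyte exit receptor S1PR1 from the membrane. Ly6c2 and Ly6a (Sca-1) encode small proteins held in the membrane by a lipid anchor, and Slamf6 encodes a receptor that binds itself on neighbouring cells and signals through the adaptor SAP. The other 4 genes are used as transcript markers of resting T cells and their products are not surface receptors. Igfbp4 encodes a secreted binding protein of insulin-like growth factors, Actn1 the actin cross-linker alpha-actinin-1, Nsg2 a protein of endosomal vesicles first studied in neurons, and Dapl1 a small relative of death-associated protein.

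In GRCm38, Cd44 (ENSMUSG00000005087.17) lies at chr2:102811141-102901665 on the minus strand, Cd69 (ENSMUSG00000030156.5) at chr6:129267325-129275436 on the minus strand, and Slamf6 (ENSMUSG00000015314.10) at chr1:171917515-171953170 on the plus strand. Ly6c2 (ENSMUSG00000022584.14, chr15:75108158-75111970) and Ly6a (ENSMUSG00000075602.10, chr15:74994877-74998031) are close neighbours on the minus strand. Dapl1 (ENSMUSG00000026989.5) lies at chr2:59484653-59505020 and Igfbp4 (ENSMUSG00000017493.12) at chr11:99041244-99054392, both on the plus strand. Actn1 (ENSMUSG00000015143.15) lies at chr12:80167547-80260371 on the minus strand and Nsg2 (ENSMUSG00000020297.10) at chr11:32000463-32059202 on the plus strand.

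Some of these genes can be told from their relatives by few bases, which bears on the counts given below. Exons 2 and 3 of Ly6c2 are shown beside the exons of the same number in its neighbour Ly6c1, 5′ to 3′ on the minus strand of GRCm38, with differing bases in capitals. Exon 2 has 83 bases, of which 6 differ, and exon 3 has 117 bases and is identical in the 2 genes.
Ly6c1 exon 2 (chr15:75048442-75048524): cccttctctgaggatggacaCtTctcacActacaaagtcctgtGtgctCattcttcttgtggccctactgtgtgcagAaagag
Ly6c2 exon 2 (chr15:75111598-75111680): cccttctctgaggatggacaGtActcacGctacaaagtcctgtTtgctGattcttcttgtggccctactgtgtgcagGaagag
Exon 3 of Ly6c1 (chr15:75047353-75047469) and of Ly6c2 (chr15:75110511-75110627): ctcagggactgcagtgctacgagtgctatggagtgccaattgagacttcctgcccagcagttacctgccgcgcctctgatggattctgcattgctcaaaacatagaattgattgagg
Of all 50-base words in the leading Ly6c2 transcript, 33.0% also occur in a transcript of another gene, mostly Ly6c1. In Ly6a 91 of 906 words were shared, and the share was 1.98% for Igfbp4, 0.434% for Actn1 and 0 for the other 5 genes. How the authors' counting split reads between Ly6c1 and Ly6c2 is not given in the sources used here, so a level of Ly6c2 by itself is uncertain.

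A second sequence belongs to the Slamf6 transcripts, whose shares in the knockout libraries are given below. It is exon 7 of Slamf6-207, the transcript with the most counts. The exon has 72 bases on the plus strand (chr1:171941625-171941696) and is skipped by the transcript Slamf6-204. Its length is divisible by 3, so that skipping it keeps the reading frame. Capitals mark GAA, the letters searched because TRA2B is known to bind purine-rich RNA with GAA.
Slamf6 exon 7: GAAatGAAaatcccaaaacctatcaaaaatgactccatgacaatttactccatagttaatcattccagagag
GAA was found 2 times on the sense strand, the only strand searched. Of 32390 internal exons of 60 to 90 bases in coding transcripts, 85.3% hold GAA and 60.1% hold it at least as often, so the match is common among exons of this size.

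Total counts per library ran from 68249844 to 93972513, and the 9 genes took 0.146 to 0.281% of the gene counts. The lowest count of any of the 9 in a library was 122 (Igfbp4 in a knockout library), and the other 8 genes had at least 1586. Tra2b, the gene named by the knockout label, stood at 361 and 370 CPM (counts scaled for depth, with TMM factors over the 18 libraries) in the knockout libraries and between 338 and 526 in the controls, with an adjusted p of 0.0899. The labels do not give the edited site, so the gene count does not check the label, and "knockout" stands for the label throughout. Of the T cell receptor beta V segment counts, Trbv12-1 took 99.7 to 99.9% in the controls, 99.5 and 99.7% in the knockouts, and 5.96 to 12.5% in the naive libraries, which goes against a single OT-I receptor in the libraries labelled naive. Stimulation, receptor repertoire and the source of the cells therefore cannot be told apart in any comparison with the naive group. The summed level of 6 CD8 T cell markers was 5356 to 6430 CPM in naive, 3448 to 4279 in control and 3932 and 3423 in knockout libraries, and none of the 6 was at 0.

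**Figure D1:**
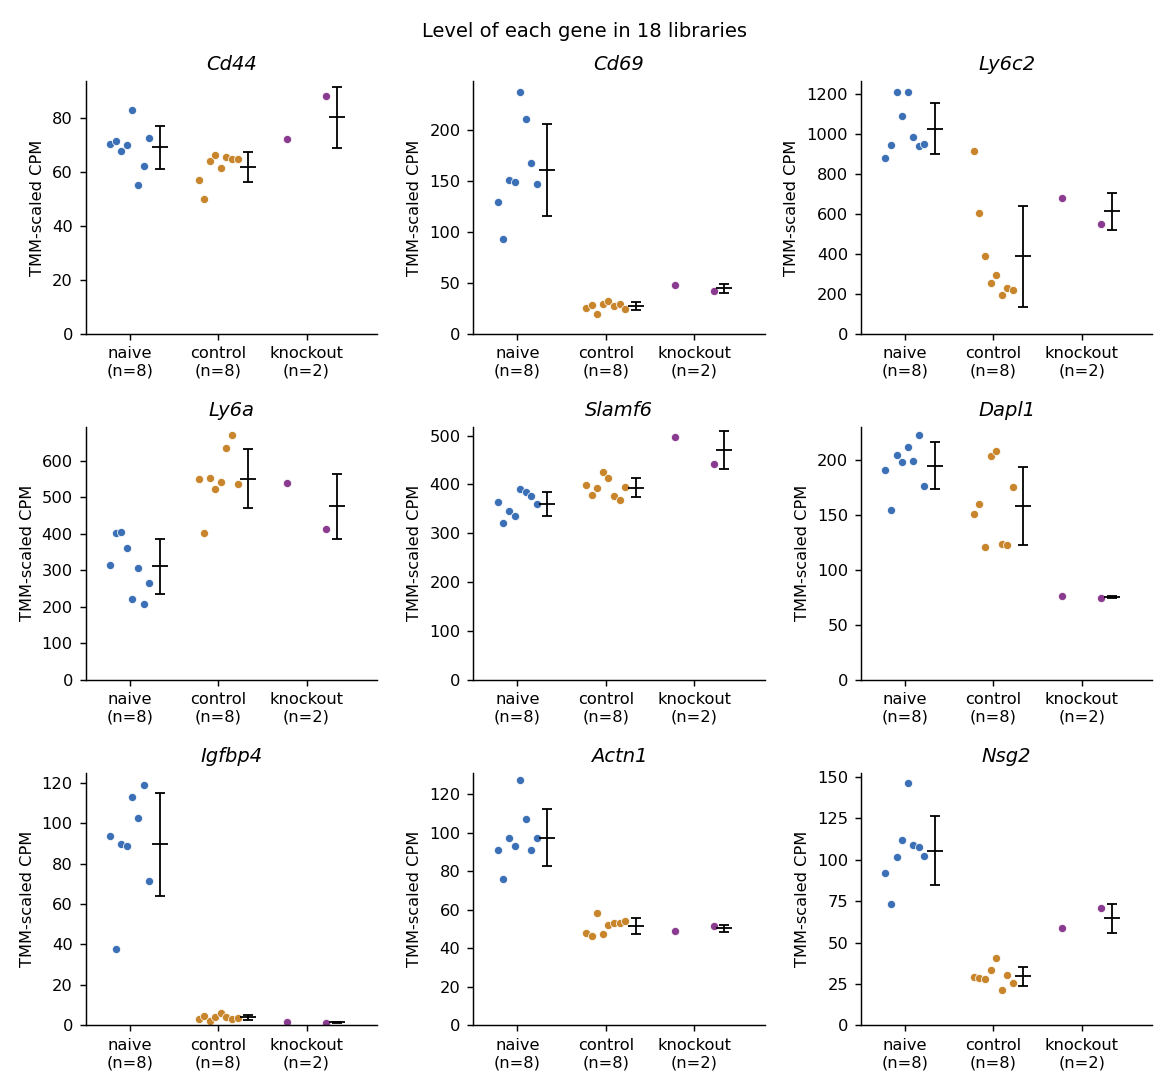
Level of each of the 9 genes in every library, in TMM-scaled CPM on linear axes that start at 0, with points for libraries and bars for the mean and SD of the 8 naive, 8 control and 2 knockout libraries. Igfbp4 stands between 37.9 and 119 in the naive libraries and at or below 6.33 in all others, and Ly6c2 has its widest spread in the controls, from 196 to 917.

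In control against naive, 2 of the 9 genes were higher (Ly6a and Slamf6), 6 were lower (Igfbp4, Cd69, Nsg2, Ly6c2, Actn1 and Dapl1) and Cd44 did not pass the test. The background was high, as 71.5% of 17078 tested genes were called (32.5% higher and 39.0% lower), so 8 called of 9 is near the share of all genes. The median log2 fold change was -0.91 over the 9 genes and -0.08 over all genes tested. Groups did not overlap for 4 of the 9 genes, all lower in control, where 42.3% of all genes did not overlap (22.2% lower and 20.1% higher).

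Igfbp4 had a lowest, median and highest level of 37.9, 91.6 and 119 CPM in the naive libraries and of 2.32, 3.94 and 6.33 CPM in the controls. All 8 controls lay below all 8 naive libraries, and naive library 2 was lowest of its group. The mean was 89.5 ± 25.6 (SD, n = 8) against 4.02 ± 1.20 (SD, n = 8), which is 22.1-fold lower in control (log2 fold change -4.46, SE 0.23, adjusted p = 2.15e-11). By size of change Igfbp4 ranked 317 among the 17078 genes, the highest rank of the 9.

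Nsg2 was measured at 73.4 to 146 CPM in the naive libraries, with a median of 105, and at 21.2 to 40.5 CPM in the controls, with a median of 28.8. The groups were apart, and the level in control was 3.56-fold lower (log2 fold change -1.83, SE 0.13, adjusted p = 6.69e-10). Actn1 went from 75.8 to 127 CPM in naive libraries (median 94.9) and from 46.6 to 58.4 CPM in controls (median 52.5). The highest control was again below the lowest naive library, and the level was 1.88-fold lower (log2 fold change -0.91, SE 0.08, adjusted p = 8.20e-09). Dapl1 was the member of the resting group with the smallest difference. Its level was 154, 198 and 222 CPM (lowest, median, highest) in naive and 120, 155 and 208 CPM in control libraries. Of the 8 controls, 4 lay below every naive library and the other 4 within the naive range. The log2 fold change of -0.30 (SE 0.11) had an adjusted p of 0.0260, and this call was lost when naive library 3, 6 or 7 or control library 1, 2, 3, 6 or 7 was left out (log2 fold changes from -0.34 to -0.23 over all 16 such fits, highest adjusted p 0.0849), with controls 3 to 8 alone (-0.27, adjusted p = 0.0893) and without a low-count filter (adjusted p = 0.0788).

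Cd69, which marks recent receptor stimulation, was lower 4 days after stimulation than in the libraries labelled naive. Naive libraries had 93.2, 150 and 237 CPM (lowest, median, highest) and controls had 19.5, 27.9 and 31.7 CPM. No control reached the lowest naive library, and the difference was 5.94-fold (log2 fold change -2.57, SE 0.15, adjusted p = 1.34e-10). Naive library 5 was highest in its group for Cd69, as it was for Cd44, Slamf6, Actn1 and Nsg2.

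Cd44 differed little between the groups at the level of the whole gene. Its level was 55.4, 70.3 and 83.0 CPM (lowest, median, highest) in naive and 49.97, 64.5 and 66.4 CPM in control libraries. The ranges overlapped, with 7 of 8 controls inside the naive range, and the log2 fold change of -0.16 (SE 0.07) had an adjusted p of 0.0540. Scaling by total counts alone gave -0.26 (adjusted p = 0.00424), while the median of all genes moved from -0.08 to -0.18. A fit limited to well-expressed genes (mean log2 CPM from 4 upwards) gave -0.28, the fit without naive library 6 an adjusted p of 0.0196, and the fit without receptor segments and other-cell marker genes 0.0463. No setting gave a higher Cd44 in control than in naive.

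Ly6a was the gene with the largest rise. Naive libraries had 208, 311 and 405 CPM (lowest, median, highest) and controls 403, 546 and 670 CPM. All controls except control 2 were above every naive library, and the mean was 1.77-fold higher (log2 fold change 0.83, SE 0.14, adjusted p = 2.73e-05). Slamf6 rose by less, from 321, 361 and 391 CPM in naive to 369, 394 and 425 CPM in control libraries. Of the 8 controls, 5 exceeded every naive library and 3 lay inside the naive range. The log2 fold change was 0.13 (SE 0.04, adjusted p = 0.0131), and the call was lost with total counts alone (0.033, adjusted p = 0.535) and in the fit on well-expressed genes (adjusted p = 0.794). Per length, in TPM computed from the transcript counts, the mean went the other way. It was 214 ± 20.03 TPM (SD, n = 8) in naive and 194 ± 13.0 TPM (SD, n = 8) in control libraries. With the trend on exon length and GC content removed, Slamf6 stood at 0.29 and Dapl1 at -0.60, both called.

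Ly6c2 was lower in control, with the widest spread of the 9 genes. Naive libraries had 883, 966 and 1212 CPM (lowest, median, highest) and controls had 196, 274 and 917 CPM. Control 1 (917 CPM) lay inside the naive range, control 2 stood at 604 CPM, control 3 at 392 CPM and the other 5 controls between 196 and 293 CPM. The log2 fold change was -1.40 (SE 0.28, adjusted p = 0.000242). With the counts of Ly6c1 and Ly6c2 summed it was -1.41 (adjusted p = 0.000223). Ly6c1 itself was lower in control by 1.59 on the log2 scale (SE 0.29, adjusted p = 8.69e-05) and showed the same order of controls 1, 2 and 3, at 46.2, 33.4 and 28.2 CPM, above the other 5 at 10.1 to 15.3 CPM.

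**Figure D2:**
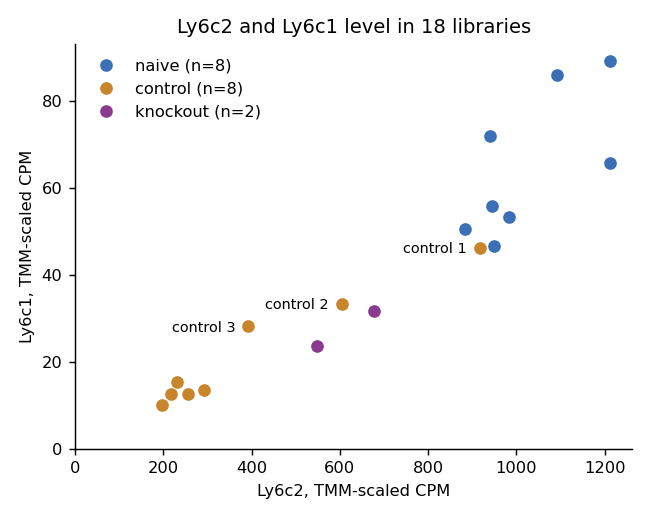
Level of Ly6c2 (x axis) against level of Ly6c1 (y axis), both in TMM-scaled CPM on linear axes, with 1 point for each of the 18 libraries. Controls 1, 2 and 3 stand above the other 5 controls on both axes, and the 2 knockout libraries, at 678 and 549 CPM of Ly6c2, lie near control 2.

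Controls 1 and 2 also had the highest sums of 8 NK cell markers among the controls, 76.8 and 72.1 CPM, against 20.9 to 31.3 CPM in controls 3 to 8 and 70.2 and 70.0 CPM in the knockouts. Most of that sum was Eomes, which CD8 T cells also express, at 12.1 to 63.3 CPM in controls and 58.1 and 59.3 CPM in knockouts, while Ncr1 was at most 2.24 CPM and Klra8 at 0 in all controls. The part of this in the level of Ly6c2 was not tested.

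In knockout against control, 4 of the 9 genes were higher (Nsg2, Cd69, Cd44 and Slamf6), 2 were lower (Igfbp4 and Dapl1), and Ly6c2, Ly6a and Actn1 did not pass the test. The background was 14.9% of 18651 genes called (7.62% higher and 7.24% lower). In 6 of the 9 genes both knockout libraries lay outside the range of the 8 controls (4 higher and 2 lower), against 23.8% of all genes (10.9% higher and 12.9% lower). The median log2 fold change was 0.26 over the 9 genes and -0.01 over all genes. The resting-state genes thus did not change in 1 direction. These counts depended on each of the 2 knockout libraries: leaving out the first left 2 genes higher, and leaving out the second left 0 lower and 651 genes called in all, against 2772. The single library left was then assumed to vary like the controls.

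Nsg2 stood at 58.5 and 70.6 CPM in the knockout libraries and at 21.2, 28.8 and 40.5 CPM (lowest, median, highest) in the controls. Both knockouts lay above all controls and below all naive libraries. The level was 2.19-fold that of control (log2 fold change 1.13, SE 0.17, adjusted p = 0.00159), and it stayed called when either knockout library was left out (highest adjusted p 0.0365). Nsg2 had the smallest adjusted p of the 9 genes in this comparison.

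Dapl1 moved the other way. The knockout libraries had 75.9 and 74.5 CPM, and the controls 120, 155 and 208 CPM. The 2 values lay close together and below every other library of the series, 2.09-fold below control (log2 fold change -1.06, SE 0.22, adjusted p = 0.00773). Without the second knockout library the change was -1.04 with an adjusted p of 0.114. Igfbp4, already low in control, was at 1.64 and 1.34 CPM in the knockouts against 2.32, 3.94 and 6.33 CPM. Those knockout levels rest on 128 and 122 counts, and the controls on 189 to 576. The log2 fold change was -1.41 (SE 0.33, adjusted p = 0.0140), and the call was lost without the second knockout library (-1.26, adjusted p = 0.164) and with limma voom (adjusted p = 0.0815). Actn1 had 49.2 and 51.5 CPM in the knockouts, inside the control range of 46.6 to 58.4 CPM, and its log2 fold change of -0.03 (SE 0.09) had an adjusted p of 0.869.

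Cd69 was at 47.8 and 41.5 CPM in the knockouts, above the highest control (31.7 CPM) and below the lowest naive library (93.2 CPM). The log2 fold change was 0.73 (SE 0.15, adjusted p = 0.00680). It was 0.62 (adjusted p = 0.0637) without the first knockout library. Cd44 was at 72.3 and 88.4 CPM against 49.97, 64.5 and 66.4 CPM in the controls, a rise of 1.304-fold (log2 fold change 0.38, SE 0.10, adjusted p = 0.0279). It was 0.24 (adjusted p = 0.395) without the second knockout library, and limma voom gave an adjusted p of 0.0643. Slamf6 was at 497 and 442 CPM, the 2 highest values of the 18 libraries, against 369, 394 and 425 CPM in the controls. Its log2 fold change was 0.26 (SE 0.07, adjusted p = 0.0221), and 0.16 (adjusted p = 0.247) without the first knockout library.

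In a fit with an offset for gene length and GC content, 3 of these rises were not called. The offset was each library's trend, on exon length and GC content, of log2 CPM as a deviation from the gene's mean. With this trend removed, Slamf6 had a log2 fold change of 0.012 (adjusted p = 0.962), Cd44 of 0.20 (adjusted p = 0.201) and Cd69 of 0.43 (adjusted p = 0.0930). Only 1 of the 9 genes, Nsg2, was called higher (1.11, adjusted p = 0.00147). Over all annotated transcripts of a gene, Slamf6, Cd44 and Cd69 have 10832, 6776 and 6509 exonic bases, the 3 longest of the set. Actn1 has 5533, Igfbp4 4416, Nsg2 4157 and Dapl1 679. By leading transcript, Cd69-201 (1687 bases) and Cd44-203 (2848) are shorter than Actn1-201 (3734) and Igfbp4-201 (3831). Slamf6, Cd44 and Cd69 also have the 3 lowest GC contents of the set, 0.430, 0.445 and 0.359 in their longest transcripts. The parts of length and of GC content in the 3 rises were not tested, and a joint offset cannot tell them apart. Dapl1 (-0.96, adjusted p = 0.0174) and Igfbp4 (-1.38, adjusted p = 0.0152) were still called lower.

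**Figure D3:**
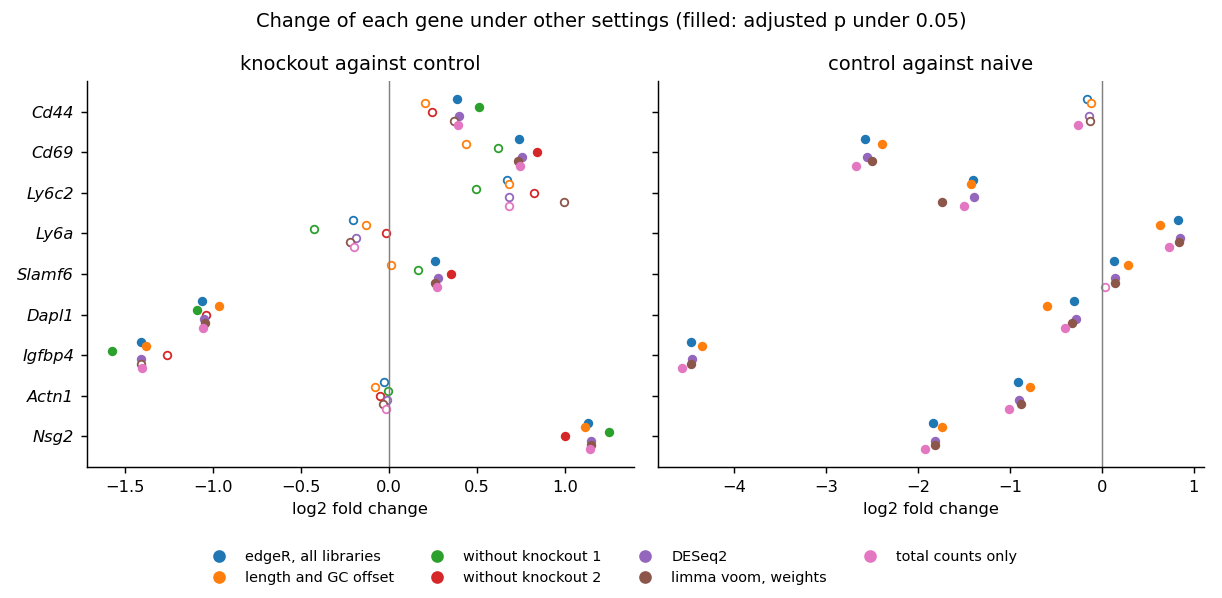
Log2 fold change (x axes) of each of the 9 genes in knockout against control (left) and control against naive (right) under 7 settings of the test, with filled points where the adjusted p is under 0.05; the fits without a knockout library apply to the left panel only. Removing the length and GC trend brings Slamf6 from 0.26 to 0.012 on the left.

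Ly6c2 in the knockout libraries, at 678 and 549 CPM, lay within the control range of 196 to 917 CPM. The log2 fold change against all 8 controls was 0.67 (SE 0.55, adjusted p = 0.472). Summing Ly6c1 and Ly6c2 gave 0.65 (adjusted p = 0.482) over all controls, and Ly6c1 alone 0.37 (SE 0.52, adjusted p = 0.693). Ly6a was at 538 and 412 CPM, within the control range of 403 to 670 CPM, and its log2 fold change of -0.21 (SE 0.15) had an adjusted p of 0.400.

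In knockout against naive, 2 genes were higher (Ly6a and Slamf6), 6 were lower and Cd44 was not called, where 44.7% of 19776 genes were called (21.1% higher and 23.6% lower). In 8 of the 9 genes the groups did not overlap (2 higher and 6 lower), against 46.4% of all genes (21.3% higher and 25.2% lower). The 3 comparisons share libraries in pairs, so their values are given side by side and not as separate evidence. Igfbp4 had the largest change at -5.85 on the log2 scale (SE 0.45, adjusted p = 1.54e-06), beside -4.46 for control against naive. Nsg2 was at -0.68 (SE 0.19, adjusted p = 0.0112), beside -1.83 for control. Cd69 was at -1.81 (SE 0.29, adjusted p = 0.000303), beside -2.57. Dapl1 was at -1.34 (SE 0.12, adjusted p = 5.48e-06), beside -0.30, and Actn1 at -0.92 (SE 0.15, adjusted p = 0.000368), beside -0.91. Ly6c2 was at -0.71 (SE 0.14, adjusted p = 0.00118) and Slamf6 at 0.42 (SE 0.09, adjusted p = 0.00173). Ly6a was at 0.65 (SE 0.22, adjusted p = 0.0327), and Cd44 at 0.25 (SE 0.12, adjusted p = 0.126). Without the first knockout library Ly6a (0.41, adjusted p = 0.332), Slamf6 (0.30, adjusted p = 0.0604) and Nsg2 (-0.58, adjusted p = 0.117) were no longer called. Ly6a was also not called with total counts alone (adjusted p = 0.0671), with limma voom (0.0644) or without naive library 1, 6 or 8 (0.0562, 0.0592 and 0.0502), and Slamf6 not with the length and GC trend removed (0.28, adjusted p = 0.0604). Ly6c2 was not called with all 3 groups in 1 fit (adjusted p = 0.202).

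**Figure D4:**
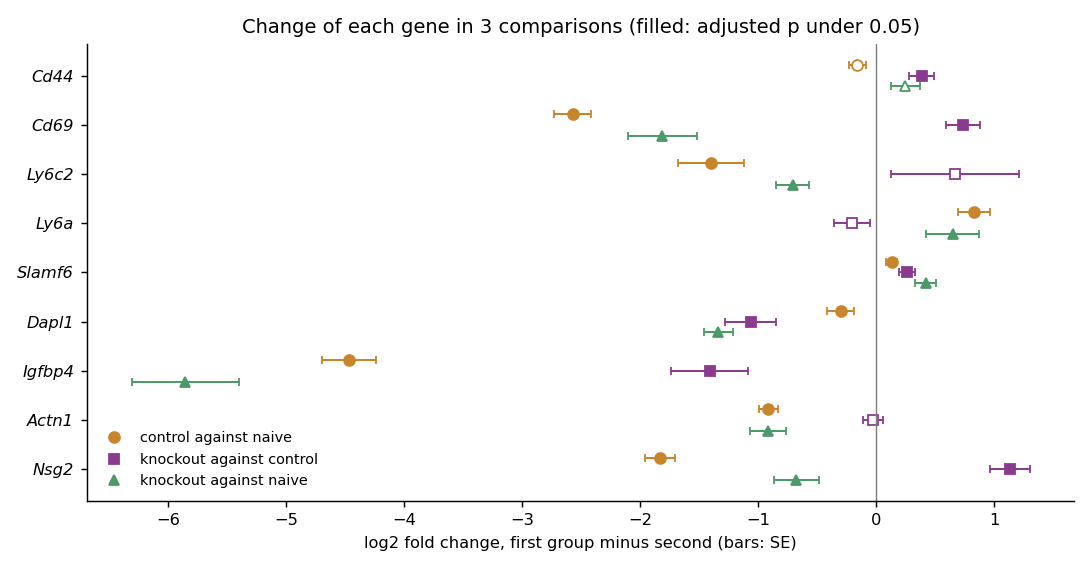
Log2 fold change (x axis, bars for the SE) of each of the 9 genes in the 3 comparisons of groups (circles for control against naive, squares for knockout against control, triangles for knockout against naive), with filled symbols where the adjusted p is under 0.05. Igfbp4 lies farthest to the left, at -4.46 and -5.85 against naive, and Nsg2 farthest to the right in knockout against control, at 1.13.

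Levels of different genes were compared per length, in TPM computed from the transcript counts. In naive libraries Ly6c2 was the most abundant of the 9, at 2278 ± 264 TPM (SD, n = 8). It was followed by Ly6a at 611 ± 137, Dapl1 at 600 ± 67.9, Slamf6 at 214 ± 20.03, Cd69 at 152 ± 44.5, Nsg2 at 85.5 ± 17.0, Actn1 at 48.2 ± 7.37, Igfbp4 at 41.8 ± 12.3 and Cd44 at 39.4 ± 5.66 TPM. The ranges of mean ± SD overlapped for Ly6a and Dapl1, and for Actn1, Igfbp4 and Cd44. Genes were not compared within libraries, so such an overlap does not show that they stand at the same level. In the controls Ly6a led at 1009 ± 144 TPM over Ly6c2 at 794 ± 496, which overlapped it, with Dapl1 at 450 ± 101 and Slamf6 at 194 ± 13.0 next. Cd44 followed at 31.2 ± 2.95 TPM, and Actn1 at 23.0 ± 1.93, Nsg2 at 22.1 ± 4.29 and Cd69 at 21.5 ± 4.35 were within each other's spread. Igfbp4 was last at 1.72 ± 0.523 TPM. In the knockouts Ly6c2 stood first at 1333 ± 140 TPM (SD, n = 2) and Slamf6, at 277 ± 21.5, above Dapl1, at 228 ± 6.21.

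The transcript table gives the forms of each gene that were counted. Dapl1-201, Igfbp4-201 and Actn1-201 held on average over 98% of their genes' counts in every group. For shares of a gene's counts, 20.9% of 20505 transcripts were called in control against naive and 0.00% of 19539 in knockout against control, where 2 against 8 libraries cannot give an exact p below 0.0222 and 2182 transcripts had an unadjusted exact permutation p under 0.05. A gene's transcript counts are estimates by the authors' assembler, so the shares below are shares of estimated counts. They are not divided by transcript length, so a longer form takes more counts per molecule than a shorter one. A leading transcript is the one with the most counts.

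Slamf6 was counted mainly as Slamf6-207, with 54.9 ± 4.36% (SD, n = 8) of its counts among naive libraries, 59.2 ± 2.697% (SD, n = 8) among controls and 62.3 ± 2.63% (SD, n = 2) among knockouts, and as Slamf6-201. The skipping form Slamf6-204 lacks the exon printed above. It has 7 exons and 984 bases, against 9 exons and 5729 bases in Slamf6-207, so the 2 differ beyond that exon. Its share is therefore not a measure of skipping that exon alone. Slamf6-201 has 2485 bases, so the count shares of these forms are not proportions of molecules. Slamf6-204 took 9.96 and 8.69% in the knockout libraries. In the controls it took 1.70, 2.90 and 3.38% (lowest, median, highest) and in the naive libraries 2.26, 3.92 and 7.12%. Both knockouts were above all 16 other libraries. The difference from control was 6.54 percentage points, with an exact two-sided permutation p of 0.0222, the smallest possible, and 0.313 after adjustment over 24548 transcripts. Slamf6-204, like Slamf6-205 below, entered only when the minimum mean share was lowered to 2%, a setting chosen after seeing the data. Slamf6-201 took 25.3 and 22.7% in the knockouts and 30.9, 35.1 and 37.5% in the controls, a difference of -10.9 points (exact permutation p = 0.0222, adjusted p = 0.310). The counts behind Slamf6-204 were 3857 and 3501 in the knockouts and 478 to 1136 in the controls. Slamf6-205, annotated as a retained intron, took 4.15, 5.36 and 6.39% in naive and 2.06, 2.58 and 3.21% in control libraries. It was lower in every control than in every naive library by 2.74 points on average, with an exact permutation p of 0.000155, the smallest possible (adjusted p = 0.00196 over the 26024 transcripts of that added setting).

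**Figure D5:**
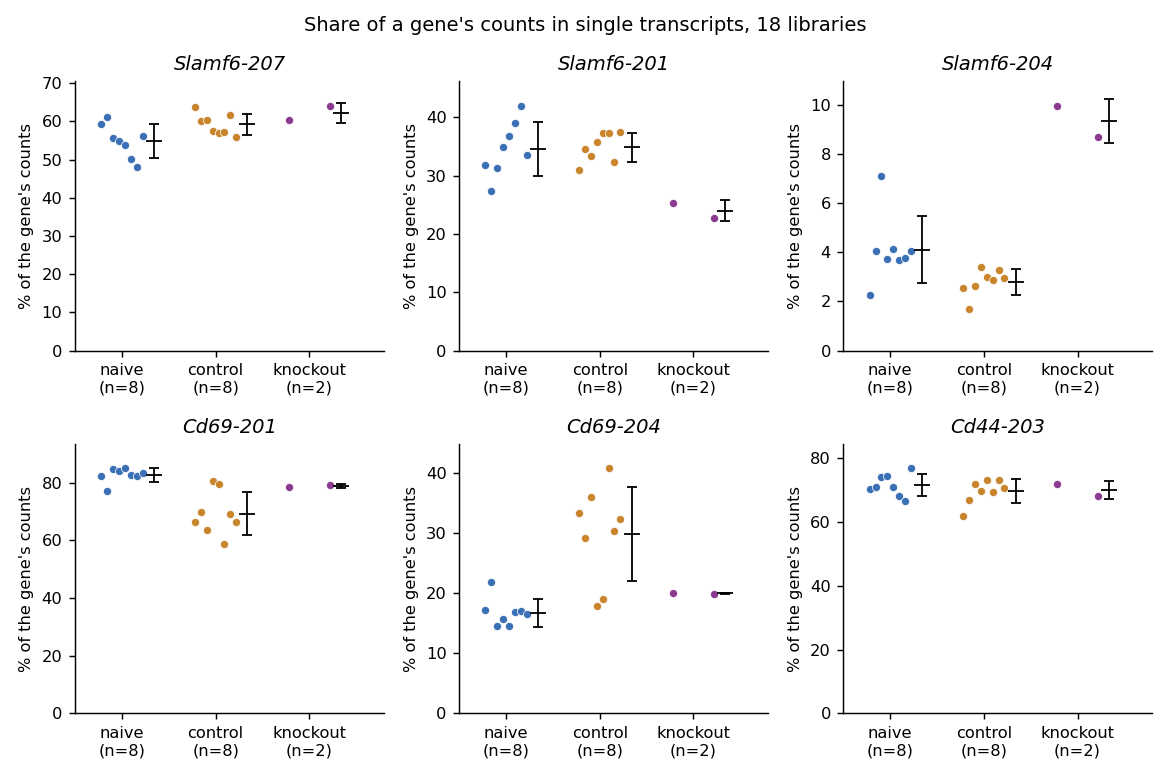
Share of the gene's estimated counts (y axes, in percent, from 0) held by 6 transcripts of Slamf6, Cd69 and Cd44 in every library, with bars for mean and SD. Slamf6-204 stands at 9.96 and 8.69% in the 2 knockout libraries and at or below 7.12% in the other 16.

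Cd69 was counted as the coding transcript Cd69-201 and the single-exon Cd69-204, which is annotated as a retained intron. Cd69-204 took 14.5, 16.8 and 21.9% (lowest, median, highest) of the Cd69 counts in naive and 17.9, 31.4 and 40.9% in control libraries. Controls 4 and 5 lay inside the naive range and the other 6 above it, with a difference of 13.1 points (exact permutation p = 0.00124, adjusted p = 0.00981). The counts behind Cd69-204 were 1563 to 3239 in naive and 417 to 1009 in control libraries, so its share rose while its counts were lower. The knockouts were at 20.1 and 19.9%, a difference from control of -9.88 points (exact permutation p = 0.200). The share of Cd69-201 was correspondingly lower in control, by 13.5 points (exact permutation p = 0.000932, adjusted p = 0.00788).

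Cd44 was counted mainly as Cd44-203, of 9 exons, with 71.5 ± 3.39% (SD, n = 8) of its counts among naive libraries, 69.6 ± 3.77% (SD, n = 8) among controls and 69.99 ± 2.75% (SD, n = 2) among knockouts. It lacks the 10 alternative exons, 1245 bases in all between 102831330 and 102848782 on chromosome 2, that the 19-exon Cd44-201 carries, which is the difference between the standard and the long form of the receptor. Its share did not pass the test in control against naive (difference -1.95 points, exact permutation p = 0.305) or in knockout against control (0.404 points, exact permutation p = 0.867). Cd44-201 took 23.5 to 28.3% in naive libraries 1, 3, 4, 6 and 7 and 0.928, 0.0956 and 16.2% in naive libraries 2, 5 and 8. In those 3 libraries Cd44-207 took 26.2, 20.9 and 6.67%, and at most 0.344% in any other library. The other 5 naive libraries overlapped the controls, which had 25.0 to 33.2%. The difference in Cd44-201 between control and naive was 10.3 points (exact permutation p = 0.00699, adjusted p = 0.0368), and the call was lost when any 1 control was left out (7.75 to 11.8 points over all 16 such tests, highest adjusted p 0.117). The last exon of Cd44-201 has 3197 bases and that of Cd44-203 has 1791, so the 2 also differ outside the alternative exons.

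The share of Ly6c2-201 fell by 1.92 points (exact permutation p = 0.00280, adjusted p = 0.0181) and that of Ly6c2-203 rose by 2.08 points (exact permutation p = 0.000311, adjusted p = 0.00345) from naive to control. These transcripts held 86.2 ± 1.06% and 10.8 ± 1.28% of the Ly6c2 counts in naive libraries.

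The 2 genes that were lower in the knockout libraries, Dapl1 and Igfbp4, are shown with the 250 bases before their start, from the RefSeq promoters of GRCm38.p6, 5′ to 3′ on the plus strand. Capitals mark a match to 1 of 5 motifs searched on both strands.
Dapl1 (chr2:59484403-59484652): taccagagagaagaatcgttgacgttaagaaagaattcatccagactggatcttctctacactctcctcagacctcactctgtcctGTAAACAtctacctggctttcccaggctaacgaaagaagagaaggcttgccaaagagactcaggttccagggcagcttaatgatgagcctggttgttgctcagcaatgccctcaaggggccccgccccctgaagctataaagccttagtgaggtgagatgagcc
Igfbp4 (chr11:99040994-99041243): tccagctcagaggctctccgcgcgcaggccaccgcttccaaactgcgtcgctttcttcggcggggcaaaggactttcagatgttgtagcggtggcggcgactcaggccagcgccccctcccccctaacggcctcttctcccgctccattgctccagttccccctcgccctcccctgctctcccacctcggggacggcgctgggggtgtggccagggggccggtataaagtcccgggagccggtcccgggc
The motifs were FOXO (TGTTTAC, held by 3.65% of 32851 promoter windows of 300 bases), TCF/LEF (CTTTGAT, 3.73%), KLF (CCACCC, 31.5%), AP-1 (TGACTCA, 5.20%) and ETS (CCGGAA, 14.9%), none of which contains another. Promoters of 7 of the 9 genes were matched. Dapl1 held 1 FOXO match and the second start of Nsg2 1 KLF match, and the others held none. The 2 promoters above differ in base composition, with 51.0% G and C in the Dapl1 window and 71.3% in that of Igfbp4.

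The genes around these markers were read from 7 lists, counted without a test of the list. Each count stands beside a background of 32.5% of all genes higher and 39.0% lower in control against naive, and of 7.62% higher and 7.24% lower in knockout against control. Of 24 naive and central memory T cell genes, 0 were higher and 20 lower in control than in naive, with a median log2 fold change of -1.89 against -0.08 over all genes. Rflnb, a partner of filamin, fell by 4.18 on the log2 scale (SE 0.17, adjusted p = 9.06e-13), and the transcription factor Lef1 by 1.98 (SE 0.09, adjusted p = 4.36e-12). The shared cytokine receptor chain Il6st fell by 2.72 (SE 0.13, adjusted p = 1.27e-11) and the transcription factor Foxp1 by 1.80 (SE 0.10, adjusted p = 3.70e-11). Between knockout and control 7 of the 24 were higher and 1 lower, with a median of 0.21. Il6st rose by 1.49 (SE 0.22, adjusted p = 0.00138), the survival gene Bcl2 by 0.93 (SE 0.16, adjusted p = 0.00288) and the kinase Txk by 0.86 (SE 0.18, adjusted p = 0.00913). The knockout libraries were far apart for Il6st, at 71.6 ± 32.3 CPM (SD, n = 2), against 25.6 ± 4.98 CPM (SD, n = 8) in the controls. The list genes were not followed through the fits that leave out a library. Il7r, which encodes a receptor chain for the survival cytokine IL-7, was the 1 called lower and fell by 1.08 (SE 0.22, adjusted p = 0.00711).

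Of 24 memory and activation surface genes, 14 were higher and 8 lower in control than in naive. The integrin chain Itgb1 (log2 fold change 1.96, SE 0.11, adjusted p = 5.28e-11) and the inhibitory receptor Pdcd1 (3.05, SE 0.19, adjusted p = 2.35e-10) rose, whereas Itgae, the integrin chain that binds E-cadherin, fell (-5.28, SE 0.36, adjusted p = 8.61e-10). Of the same 24 genes, 4 were higher and 5 lower in knockout than in control. The inhibitory receptors Tigit (1.70, SE 0.25, adjusted p = 0.00155) and Ctla4 (0.81, SE 0.17, adjusted p = 0.00971) and the ectoenzyme Cd38 (1.06, SE 0.16, adjusted p = 0.00167) rose, and Cd6 fell (-0.66, SE 0.14, adjusted p = 0.00832).

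Of the Ly6 family 9 genes were tested, among them Ly6a and Ly6c2, and 1 was higher (Ly6a) and 6 lower in control than in naive. Ly6e, expressed at 1761 ± 67.4 CPM (SD, n = 8) in control and 1209 ± 182 CPM (SD, n = 2) in knockout libraries, fell by 0.54 on the log2 scale (SE 0.08, adjusted p = 0.00154). Ly6g5b, the 1 that rose, was low throughout, at 0.602 ± 0.270 CPM in the controls and 1.86 ± 0.0709 CPM in the knockouts. Of 13 SLAM family and adaptor genes tested in control against naive, 4 were higher and 6 lower, Slamf1 rising (2.02, SE 0.13, adjusted p = 4.07e-10) and Cd84 falling (-0.95, SE 0.09, adjusted p = 2.00e-08). Slamf6 was the 1 of 14 higher in knockout against control, with 0 lower.

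Among genes of CD44 ligands, partners and linkers to the cytoskeleton, 5 of 14 were higher and 4 lower in control than in naive, and 1 (the kinase Lck, -0.32, SE 0.08, adjusted p = 0.0188) was lower in knockout than in control. Of the CD69 partners, 2 of 13 were higher and 7 lower in control than in naive. S1pr1, the receptor that CD69 holds inside the cell, fell with Cd69, by 1.15 (SE 0.10, adjusted p = 1.60e-08). Lgals1, encoding a galectin that binds CD69, rose by 1.65 (SE 0.17, adjusted p = 6.51e-08) in control and was lower in knockout than in control by 0.85 (SE 0.09, adjusted p = 0.000318). Slc3a2, whose product associates with CD69, was higher in knockout than in control (0.46, SE 0.08, adjusted p = 0.00429). Of the relatives of Actn1, Igfbp4, Nsg2 and Dapl1, 6 of 14 were higher and 5 lower in control than in naive. Actn4, the other widely expressed alpha-actinin, rose (0.71, SE 0.05, adjusted p = 6.56e-10) where Actn1 fell, and the muscle form Actn2 fell (-1.98, SE 0.19, adjusted p = 3.11e-08). Igfbp7 rose from 0.0497 ± 0.0751 CPM in naive to 8.27 ± 3.04 CPM in control libraries, opposite to Igfbp4, and was at 1.01 ± 0.162 CPM in the knockouts. Of 15 relatives tested in knockout against control, 2 were higher and 2 lower. The median log2 fold change of these lists in control against naive, beside -0.08 over all genes, was 0.40 for the memory and activation surface genes, -0.78 for the Ly6 family, -0.30 for the SLAM family, -0.08 for the CD44 partners, -1.15 for the CD69 partners and 0.09 for the relatives.

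Summed markers of dendritic cells and macrophages, B cells, NK cells, and stroma and endothelium were higher in every naive library than in every control. Those of CD4 T cells, neutrophils, and erythroid cells and platelets overlapped between the groups. The summed level of 12 dendritic cell and macrophage genes was 694 to 1895 CPM in naive, 74.1 to 166 CPM in control and 120 and 100 CPM in knockout libraries. In naive libraries most of it was H2-Ab1, H2-Aa and H2-Eb1 (medians 644, 290 and 274 CPM). Siglech was at 0 in all control and knockout libraries. Of the 12 genes, 8 were lower and 0 higher in knockout than in naive, beside 23.6% and 21.1% of all genes. Itgax (34.9 to 47.4 CPM), Lyz2 (22.2 to 47.2 CPM), Csf1r and Adgre1 stood inside the naive range in both knockouts. The sum of 13 B cell genes was 739 to 1200, 396 to 476 and 835 and 670 CPM, mostly Ighm, while Pax5 was at most 0.464 CPM in any library. NK cell genes summed to 140 to 225, 20.9 to 76.8 and 70.2 and 70.0 CPM. Stroma and endothelium genes summed to 79.7 to 125, 29.1 to 49.4 and 48.7 and 53.0 CPM, nearly all Pecam1, with Col1a2 at most 0.110 CPM. CD4 T cell genes summed to 4.13 to 6.07, 4.42 to 20.8 and 4.71 and 3.77 CPM, with Cd4 itself at most 1.48 CPM. Neutrophil genes summed to at most 7.94 CPM, and erythroid and platelet genes to at most 25.4 CPM except in the first knockout library, at 79.1 CPM. Of these lists, 11 of 11 tested dendritic cell and macrophage genes, 8 of 10 B cell genes and 7 of 8 NK cell genes were lower in control than in naive, beside 39.0% of all genes. Neutrophil genes were lower in 3 of 3 and erythroid and platelet genes in 1 of 5. Among 4 stroma and endothelium genes 2 were lower and 1 higher, and among 4 CD4 T cell genes 1 was lower and 2 higher, beside 32.5% of all genes higher. The CD8 T cell markers were lower in 5 of 6. In a bulk library fewer cells of a type and less RNA per cell cannot be told apart. The part of these cells in the members' levels was not tested.

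For each of the 9 genes the 2 coding genes with the most similar course over the 18 libraries were found by the root mean square difference of log2 CPM, each gene centred on its mean, among 10255 genes. The libraries fall into 3 groups, so this measure reflects the group means as well as the single libraries. Cd69 was most like Bcl2 (0.192) and Gbp4 (0.231), Nsg2 most like Ssh2 (0.204) and Mpp1 (0.213), and Ly6c2 most like Prf1 (0.247) and St3gal6 (0.248). Mean levels of Bcl2 were 148, 28.5 and 54.3 CPM in naive, control and knockout libraries, and those of Prf1, which encodes perforin, 153, 47.3 and 79.8 CPM. Dapl1 was nearest to Bcdin3d (0.165) and Tnfaip8l2 (0.179), and Actn1 to Tbc1d17 (0.0955) and Spns1 (0.0981). Igfbp4 was nearest to Gm12185 (0.277) and Apol7e (0.408), beside its own SD of 2.31 on the log2 scale. Ly6a was nearest to Hspa5 (0.170) and Magee1 (0.177). Cd44, with Sufu (0.105) and Ammecr1l (0.120), and Slamf6, with Pdhb (0.0771) and Actr3 (0.0777), varied so little themselves (SD 0.187 and 0.142) that small differences are common there.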

How the data were processed

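Estimated counts per gene and per transcript, deposited by the authors as whole numbers with no normalization, were used for 18 libraries (low-input polyA libraries, per the labels' protocols). The submitters' processing notes name the aligner STAR 2.7.1a, the assembler StringTie 2.1.0, SAMtools 1.9, DESeq2 1.30.1 under R 4.0.5, and 2 builds, mm39 and mm10, with no role. Coordinates are those of GENCODE M21 (GRCm38), which holds all 55536 Ensembl identifiers. Every gene count equals the sum of its transcript counts. Rows with numeric identifiers (26248 of 81881, 0.0513 to 0.132% of the counts) name no gene and were left out, as were 97 spike-in rows that hold no counts.

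The members and gene lists were chosen with earlier results of these data known, so no count over them is independent evidence. Groups were compared with edgeR 4.0.16 in R 4.3.3 (robust quasi-likelihood test, TMM scaling, filterByExpr with a minimum count of 10, prior count 2) on all genes. P-values were adjusted by Benjamini-Hochberg over all genes tested and called under 0.05. The SE belongs to a log2 fold change, SD to the libraries of a group. TMM-scaled CPM values use 20750 genes and all 18 libraries. Transcript shares (mean gene count at least 100, mean share at least 5%) were compared by exact two-sided permutation tests, over 12870 splits for 8 against 8 libraries (smallest p 0.000155) and 45 for 2 against 8 (0.0222). Named beside the members are Tra2b, up to 4 genes of each pathway list with the smallest p, of which those with values of interest are printed, and 2 most similar genes per member, taken from genes averaging 1 log2 CPM or more (offset 0.5). Of 203 list genes 2 were not matched. Data were simulated with the design of knockout against control and the dispersion trend over genes, with no spread particular to a gene. On them the test recovered 39.1, 100 and 100% of 1.5-, 2- and 4-fold changes among genes at a mean log2 CPM from 4 upwards, which leaves out Igfbp4. Over all genes it recovered 17.9, 44.8 and 60.6%, with 2 false calls in 17953 genes. Genes that vary more than the trend are not covered by these figures. The alternatives were DESeq2 1.42.0, limma 3.58.1 voom, other scalings and filters, all groups in one fit, a length and GC offset, a replicate block, controls 3 to 8 alone (which drops the 2 controls highest in Ly6c2), and leaving out each library.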

Additional observations from a re-analysis of the deposited data

How the results depend on the processing

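Of the alternatives run, 228 member values of control against naive kept direction and call, 12 lost the call and 4 gained it, and none reversed. In knockout against control 170 kept both, 21 lost the call, 1 gained it (Ly6c2 without its 2 highest controls, a choice that fixes the larger rise) and 6 reversed. In knockout against naive 166 kept both, 14 lost the call and 1 gained it. The members called higher in control against naive were 1 with total counts only and 1 in the fit limited to a mean log2 CPM from 4 upwards, which left 6061 genes called of fewer tested. In knockout against control the members called lower were 1 with that filter, in which Igfbp4 was not tested, and 1 with limma voom, and the members called higher were 1 with the length and GC offset. In knockout against naive the members called higher were 1 with total counts only, 1 with limma voom and 1 with the length and GC offset, and 4883 genes were called with the mean log2 CPM filter. The causes of the other changes were not tested.

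Leaving out single libraries gave 11976 to 12243 genes called in control against naive, with 2 members higher throughout and 5 to 6 lower. In knockout against control it gave 651 to 2858 genes, 2 to 4 members higher and 0 to 2 lower. In knockout against naive it gave 6766 to 8986 genes, 0 to 3 members higher and 5 to 6 lower. Transcript shares called ran from 3852 to 4161 in control against naive. In knockout against control none were called, which does not show stability. Exact p-values from 2 against 8 libraries cannot fall below 0.0222, and with 1 knockout library left no call was possible. The share of Slamf6-201 in control against naive ranged from -0.73 to 1.35 points (-0.05, -0.06 and -0.08 without control 5, 6 or 8 and -0.11, -0.73 and -0.17 without naive 1, 2 or 3), and that of Cd44-203 in knockout against control from -1.54 (without knockout 1) to 2.35, with -0.70 without control 1.

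The residuals gave little sign of pairing by replicate number, but low correlations cannot exclude it. Over 20750 genes the residuals of same-numbered control and naive libraries had correlations from -0.025 to 0.0321, and in 1 of 8 the own number gave the highest value. For knockout and control they were 0.0104 and 0.0506, and for knockout and naive 0.00463 and 0.0251. In both pairs of groups knockout 2 had its highest value with its own number, and knockout 1 did not. The residuals of the 2 knockout libraries are mirror images, being taken from their common mean, so these are not separate observations. With the number as a block, edgeR called 0 genes in knockout against control (3536 at an unadjusted p under 0.05), 0 members higher and 0 lower, with Ly6c2 at -0.29 and Actn1 at 0.081. The block with the length and GC offset called 53 genes and 0 members higher or lower, with Ly6c2 at -0.27, Ly6a at 0.11, Slamf6 at -0.022 and Actn1 at 0.012. With the number alone as a block, knockout against naive called 3322 genes, with 0 members higher and 4 lower. The block leaves few degrees of freedom with 2 knockout libraries.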
